A study of Mus musculus with 2 samples.

Results

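The genes described here are 10 genes of the daily clock and of the glucocorticoid response in aged mouse cortex: Tsc22d3, Fkbp5, Sgk1, Nr3c1, Per1, Dbp, Ciart, Nr1d1, Nr1d2 and Tef. They were chosen by symbol, and every read assigned to the annotated gene of that name was taken. All 10 had reads in both libraries, out of 18534 annotated genes with at least 1 read. The choice was made with read counts and transcript shares of these libraries already known, so levels, ratios between the libraries and transcript shares are given as descriptions. The study sequenced whole RNA molecules as long reads in cortex tissue of the left hemisphere, taken from B6CASTF1/J mice, the first-generation cross of C57BL/6J and CAST/EiJ, aged 18 to 20 months. There is 1 group of 2 biological replicates, each from 2 µg of total RNA, with no treatment, and both replicates carry the same donor entry. The labels used here give no hour of collection, which matters for genes that cycle over the day. The sex field reads female while a free-text note reads male. Xist, the RNA that coats the inactive X chromosome, had 34 and 29 reads, and the Y-linked genes Ddx3y, Uty, Kdm5d and Eif2s3y had 0 in both libraries.

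The mammalian clock is a feedback loop. The activators CLOCK and BMAL1 bind E-boxes in or near Per, Cry, Nr1d1, Nr1d2, Dbp and Tef, and the PER and CRY proteins then block the activators. Glucocorticoid hormones, which follow a daily rhythm and rise with stress, bind the receptor encoded by Nr3c1. The bound receptor moves to the nucleus and activates genes such as Tsc22d3, Fkbp5, Sgk1 and Per1. Cortical cells have clocks of their own.

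The parts of these genes that carry the main patterns below can be read directly in the sequence. Tsc22d3 and Sgk1 each have alternative upstream exons that are spliced to the same downstream exon. A read that crosses the junction shows which upstream exon was used. For Tsc22d3-203 and Sgk1-204 that exon is not the first, so the junction does not show the start. In the lines below the last 20 bases of the upstream exon are in lower case and the first 10 bases of the shared exon are in capitals, 5′ to 3′ in the direction of the gene, from the GENCODE M21 transcripts of GRCm38.
Tsc22d3-201: tccgttaaactggataacagTGCCTCCGGA
Tsc22d3-202: ctagctaggtccggagttcgTGCCTCCGGA
Tsc22d3-203: attctacttttcttccacagTGCCTCCGGA
Sgk1-201: aatggtagcgattctcatcgCTTTTATGAA
Sgk1-202: cgtcctgctgagcggactggCTTTTATGAA
Sgk1-204: ctggactaatgatgatgcagCTTTTATGAA

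The shared Tsc22d3 exon is 52 nt long at chrX:140542105-140542156 on the minus strand. Tsc22d3-201 enters it from a first exon of 342 nt at chrX:140542846-140543187, and Tsc22d3-202 from a first exon of 158 nt at chrX:140542511-140542668. The long form Tsc22d3-203 starts far upstream and enters it from its second exon of 431 nt at chrX:140598128-140598558. Tsc22d3-201 and Tsc22d3-203 are annotated with coding sequences of 137 and 201 codons, and Tsc22d3-202 with none. The shared Sgk1 exon is 76 nt long at chr10:21994966-21995041 on the plus strand. Sgk1-201 and Sgk1-202 enter it from first exons at chr10:21994666-21994825 and chr10:21993890-21994181. Sgk1-204 begins at chr10:21882184 and enters it from exon 3 at chr10:21969449-21969524. The 3 Sgk1 forms have annotated coding sequences of 431, 445 and 524 codons.

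Reads on annotated genes numbered 774629 in replicate 1 and 679147 in replicate 2, and levels are given as CPM, each count scaled to the same total of these reads. Each long read stands for 1 molecule, so CPM is not divided by gene length, but a long RNA is more often read in part. A count of 0 allows up to 3 reads, or 3.87 and 4.42 CPM. Models antisense to genes took 8.43% of mouse reads in replicate 1 and 15.9% in replicate 2, and models of a single exon took 20.6% and 28.7%. Markers of cortex were present: Slc17a7, the glutamate transporter of cortical excitatory neurons, stood at 1142 and 973 CPM, and of the choroid plexus markers Ttr stood at 23.2 and 7.36 CPM while Folr1, Aqp1 and Otx2 had 0 reads. Of 4 markers of the hypothalamus, which holds the central clock, Six6 and Oxt had 0 reads, Avp had 1 and 3, and Vip, which cortical interneurons also express, had 89 and 72. Of the marker lists, the summed level went from 3546 to 3686 CPM for astrocytes (5 genes), 2040 to 1826 for oligodendrocytes (5), 314 to 233 for endothelium (4), 333 to 320 for microglia (5), 1343 to 1246 for excitatory neurons (3), 503 to 417 for inhibitory neurons (3) and 461 to 246 for blood (5). In bulk tissue, fewer cells of a type and less RNA per cell cannot be told apart.

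By mean level the 10 genes ran from Tef to Fkbp5, but the first place depended on the measure: Tsc22d3 was above Tef in replicate 2, and above it on the mean with models of more than 1 exon only, 235 against 225 CPM. Tef (chr15:81802421-81826863, plus strand) encodes a PAR-domain basic leucine zipper activator of the clock output. It had 204 reads in replicate 1 and 197 in replicate 2, or 263 and 290 CPM (mean 277 ± 18.9 SD, n = 2). Tsc22d3 (chrX:140539528-140600659, minus strand) encodes GILZ, a leucine zipper protein that carries part of the anti-inflammatory action of glucocorticoids. It had 112 and 199 reads, or 145 and 293 CPM (219 ± 105 SD, n = 2), so that its 2 libraries lay on either side of the lower Tef value. Together the 10 genes took 666 and 749 reads, 860 and 1103 CPM.

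**Figure D1:**
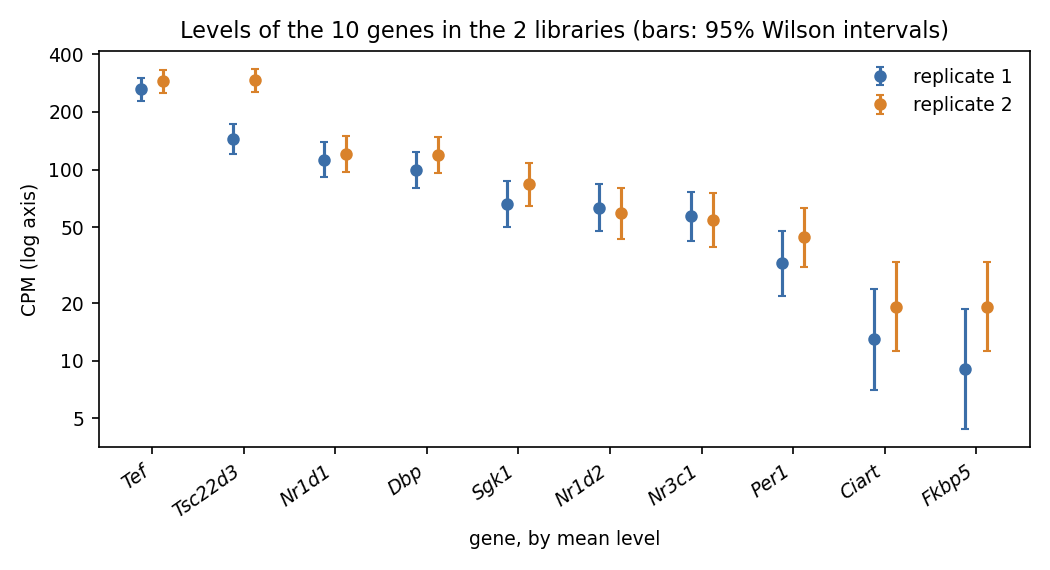
Level of each gene in CPM (log axis), in replicate 1 and replicate 2, with 95% Wilson intervals that cover counting error only. Tsc22d3 is the gene whose 2 intervals lie apart, at 145 and 293 CPM, and Tef holds the highest mean while the replicate 2 points of both are close, 290 and 293.

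Next in the order came the nuclear receptor and the second PAR-domain factor. Nr1d1 (chr11:98767932-98775333, minus strand) encodes REV-ERBα, a heme-binding repressor of Bmal1, and had 87 and 82 reads, 112 and 121 CPM (117 ± 5.96 SD, n = 2). Dbp (chr7:45705088-45710203, plus strand), a PAR-domain activator like Tef, had 77 and 81 reads, 99.4 and 119 CPM (109 ± 14.0 SD, n = 2). The values of Nr1d1 and Dbp overlapped.

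Sgk1 (chr10:21882184-21999903, plus strand), a kinase that regulates ion channels and transporters, had 51 and 57 reads, 65.8 and 83.9 CPM (74.9 ± 12.8 SD, n = 2). Nr1d2 (chr14:18204054-18239127, minus strand) encodes REV-ERBβ, the paralog of REV-ERBα, and had 49 and 40 reads, 63.3 and 58.9 CPM (61.1 ± 3.08 SD, n = 2). Nr3c1 (chr18:39410545-39519421, minus strand), the glucocorticoid receptor, had 44 and 37 reads, 56.8 and 54.5 CPM (55.6 ± 1.64 SD, n = 2). These 3 genes did not overlap in their replicate values, but the gaps were small beside the counting intervals, which ran from 42.3 to 76.2 CPM for Nr3c1 and from 47.9 to 83.6 CPM for Nr1d2 in replicate 1.

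Per1 (chr11:69095217-69109960, plus strand), a repressor of the loop that is also induced directly by glucocorticoids, had 25 and 30 reads, 32.3 and 44.2 CPM (38.2 ± 8.41 SD, n = 2). Ciart (chr3:95878503-95882251, minus strand), also called Chrono, a repressor of CLOCK and BMAL1, had 10 and 13 reads, 12.9 and 19.1 CPM (16.0 ± 4.41 SD, n = 2). Fkbp5 (chr17:28399094-28517527, minus strand), a co-chaperone that lowers the hormone affinity of the receptor and is itself induced by it, had 7 and 13 reads, 9.04 and 19.1 CPM (14.1 ± 7.15 SD, n = 2). Ciart and Fkbp5 overlapped, and at these counts a difference between them was not detectable.

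Of the 10 genes, Tsc22d3 differed most clearly between the libraries. Its log2 ratio of replicate 2 over replicate 1, on the CPM + 1 scale, was 1.01 (counting SE 0.17), a 2.03-fold higher level in replicate 2. It passed the exact binomial test of the 2 libraries (Benjamini-Hochberg adjusted p under 0.05 over all genes tested), and the other 9 did not. Over all 9143 genes with at least 20 reads, 1.99% passed, 1.26% higher and 0.733% lower in replicate 2. The test compares the libraries as sequenced, not conditions, and nothing is read from the call because the choice of genes used this contrast. Fkbp5 had a ratio of similar size, 1.00, but on 20 reads (SE 0.62). The ratio was 0.53 for Ciart (SE 0.57), 0.44 for Per1 (0.38), 0.35 for Sgk1 (0.27), 0.26 for Dbp (0.23), 0.14 for Tef (0.14) and 0.10 for Nr1d1 (0.22). It was −0.06 for Nr3c1 (SE 0.32) and −0.10 for Nr1d2 (0.30), and both of these turned positive when models of a single exon were left out, to 0.38 and 0.16. The median of the 10 ratios was 0.30, beside 0.03 for all genes tested. Scaling by edgeR's TMM gave 0.27 beside −0.01, and DESeq2's size factors gave 0.23 beside −0.05. These scalings also moved the calls over all genes, from 115 higher and 67 lower to 97 and 91 with TMM and 90 and 153 with size factors. Tsc22d3 passed under both.

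The difference in Tsc22d3 lay in the reads of Tsc22d3-201. Tsc22d3-201, the short coding form, had 42 reads in replicate 1 and 138 in replicate 2, or 54.2 and 203 CPM. All other Tsc22d3 reads together numbered 70 and 61, or 90.4 and 89.8 CPM, with a log2 ratio of −0.01 (counting SE 0.25). Tsc22d3-201 therefore made up 37.5% of the gene's reads in replicate 1, with a 95% interval of 29.1 to 46.7, and 69.3% in replicate 2, with 62.6 to 75.3. Tsc22d3-202, the form with no annotated coding sequence, had 49 reads and 32, 43.8% and 16.1% of the gene's reads, and 63.3 and 47.1 CPM. The 201 share passed Fisher's exact test (adjusted p under 0.05), as did 0.168% of 5961 genes tested on their major transcript. Of the 8 member genes with at least 20 reads in each library it was the only 1 to pass, and since the choice of genes used this share the call is a description.

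Reads that reach the shared exon gave the same picture by junction, in a grouping added after the data had been seen. Of 99 such reads in replicate 1, 42 came from the 201 exon (42.4%) and 50 from the 202 exon (50.5%). Of 188 in replicate 2, 138 came from the 201 exon (73.4%) and 32 from the 202 exon (17.0%). The upstream exon of the long form Tsc22d3-203, which encodes the long protein, had 5 reads (5.05%, interval 2.18 to 11.3) and 16 (8.51%, 5.31 to 13.4). All 21 of these reads were in models outside the annotated transcripts. By first splice donor none began with the annotated first exon of Tsc22d3-203, and 7 and 19 spliced reads of the gene had other first donors. The reads of this exon therefore do not measure use of the long start. In replicate 1 the 2 proximal exons were used about equally and in replicate 2 the 201 exon led, while the intervals of the 203 exon overlapped.

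**Figure D2:**
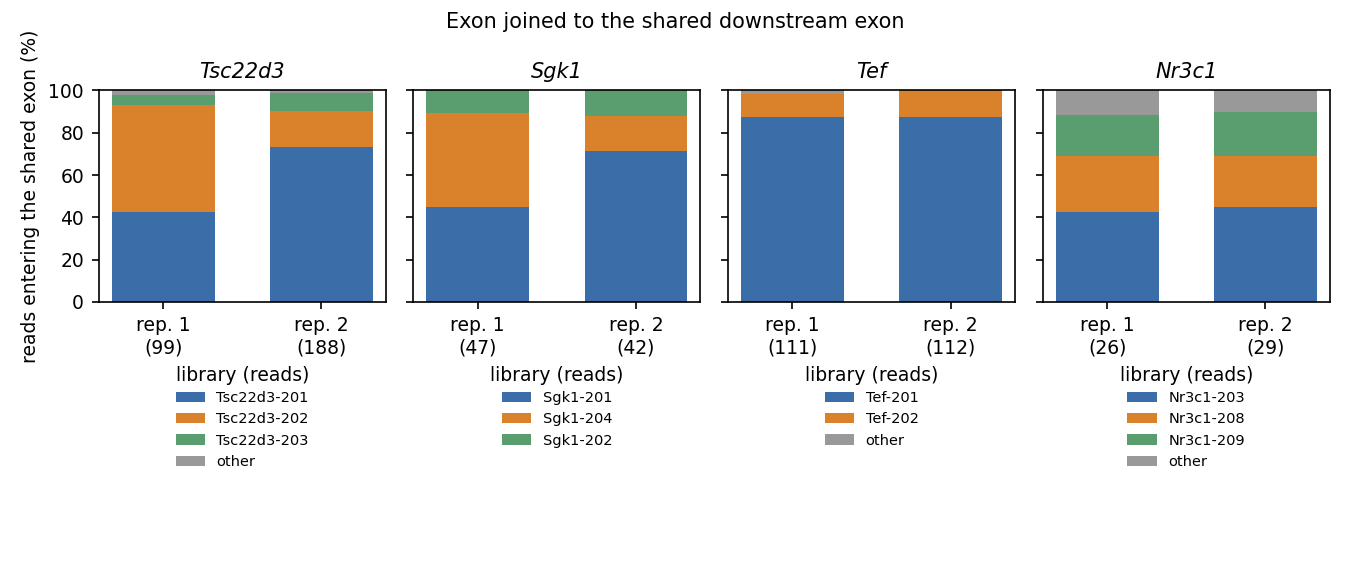
Share of reads (%) that enter the shared downstream exon from each upstream exon, for Tsc22d3, Sgk1, Tef and Nr3c1, in replicate 1 and replicate 2, with the number of such reads in parentheses. The 201 exon goes from 42.4% to 73.4% in Tsc22d3 and from 44.7% to 71.4% in Sgk1, while Tef stays near 87.4% and 87.5%.

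Sgk1 was split between the proximal 201 start and the distal 204 start. Of 47 reads that reached its shared exon in replicate 1, 21 came from the 201 exon and 21 from the 204 exon (44.7% each, interval 31.4 to 58.8). Of 42 in replicate 2, 30 came from the 201 exon (71.4%, 56.4 to 82.8) and 7 from the 204 exon (16.7%, 8.32 to 30.6). Sgk1-202 had 5 reads in each (10.6% and 11.9%). The 201 intervals overlapped, and the 204 intervals did not by their edges, 31.4 against 30.6, on 21 and 7 reads. This grouping was added after the data had been seen. The 204 share was not tested or set beside other genes, so nothing is read from it. Over all models, Sgk1-201 had 21 and 28 reads and Sgk1-204 had 19 and 7, and the share of Sgk1-201 among all Sgk1 reads, 41.2% and 49.1%, did not pass Fisher's exact test.

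In Tef and Nr3c1 the starts had similar shares in both libraries, and their intervals overlapped. In Tef the 201 exon gave 97 of 111 and 98 of 112 reads that entered the shared exon (87.4% and 87.5%), and the exon of Tef-202 gave 12 and 14 (10.8% and 12.5%). The annotated coding sequences of Tef-201 and Tef-202 have 301 and 285 codons. Tef-207, an annotated retained-intron form of 791 nt with no coding sequence, lies outside this junction and had 24 and 26 reads, 11.8% and 13.2% of all Tef reads. In Nr3c1 the noncoding first exon of Nr3c1-203 gave 11 of 26 and 13 of 29 reads, that of Nr3c1-208 gave 7 and 7, and that of Nr3c1-209 gave 5 and 6. The 3 annotated starts were thus used in the same order in both libraries. Nr3c1-208 and Nr3c1-209 are annotated as shorter transcripts of 1891 and 377 nt. Most of the reads from these 2 starts ran on through 9 exons, in models of 6586 and 6697 nt that joined annotated sites in a new combination. The 2 models had 11 and 12 reads over both libraries, beside 20 for Nr3c1-203.

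A further form of Nr3c1 differed by 3 nt at 1 splice donor, which adds 1 codon in the DNA-binding region and is known as the gamma form of the receptor. The longer exon was used in 5 of 30 reads in replicate 1 and 1 of 30 in replicate 2, or 6 of 60 in all (95% interval 4.66% to 20.1%). This donor pair was looked at after the data had been seen.

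Among the remaining genes, Dbp-201 held 69 of 77 and 65 of 81 Dbp reads (89.6% and 80.2%). Nr1d2-201 held 26 of 49 and 27 of 40 (53.1% and 67.5%), and Ciart-201 held 5 of 10 and 7 of 13. Nr1d1-201, the 8-exon coding form, held 38 of 87 and 40 of 82 (43.7% and 48.8%). A second Nr1d1 model of 4 exons and 1124 nt held 32 and 28 reads (36.8% and 34.1%). Its first exon runs over chr11:98770188-98770426, the first exon of the annotated Nr1d1-202, a transcript with no coding sequence, and it is then spliced through the last exons of the gene. Grouped by first splice donor, 40 and 45 Nr1d1 reads began like Nr1d1-201 (46.0% and 54.9%) and 34 and 29 like Nr1d1-202 (39.1% and 35.4%). The donor of Nr1d1-202 is also the donor of intron 5 in Nr1d1-201, and the 1124 nt model is classed as an incomplete splice match. By donor, a Nr1d1-201 read that lacks its 5′ part cannot be told apart from a read with its own start there. Fkbp5-201 had 1 read of 7 and 5 of 13. With all single-exon models of a gene pooled as 1 entry, the 10 genes had 115 distinct splice chains or entries, of which 47 were seen in both libraries and 68 in 1.

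The share of reads on annotated transcripts was highest for Dbp, at 91.8% over both libraries, followed by Tsc22d3 at 83.9%, Sgk1 at 78.7%, Tef at 66.8%, Nr1d2 at 60.7%, Ciart at 52.2%, Nr1d1 at 46.2% and Nr3c1 at 30.9%, and it was 6 of 20 reads in Fkbp5. In Nr3c1 a further 34.6% of reads were new combinations of annotated sites. The median of all genes with at least 20 reads was 67.9% (quartiles 38.4 and 85.7%). Per1 had none of 55 reads on an annotated transcript (interval 0 to 6.53%).

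**Figure D3:**
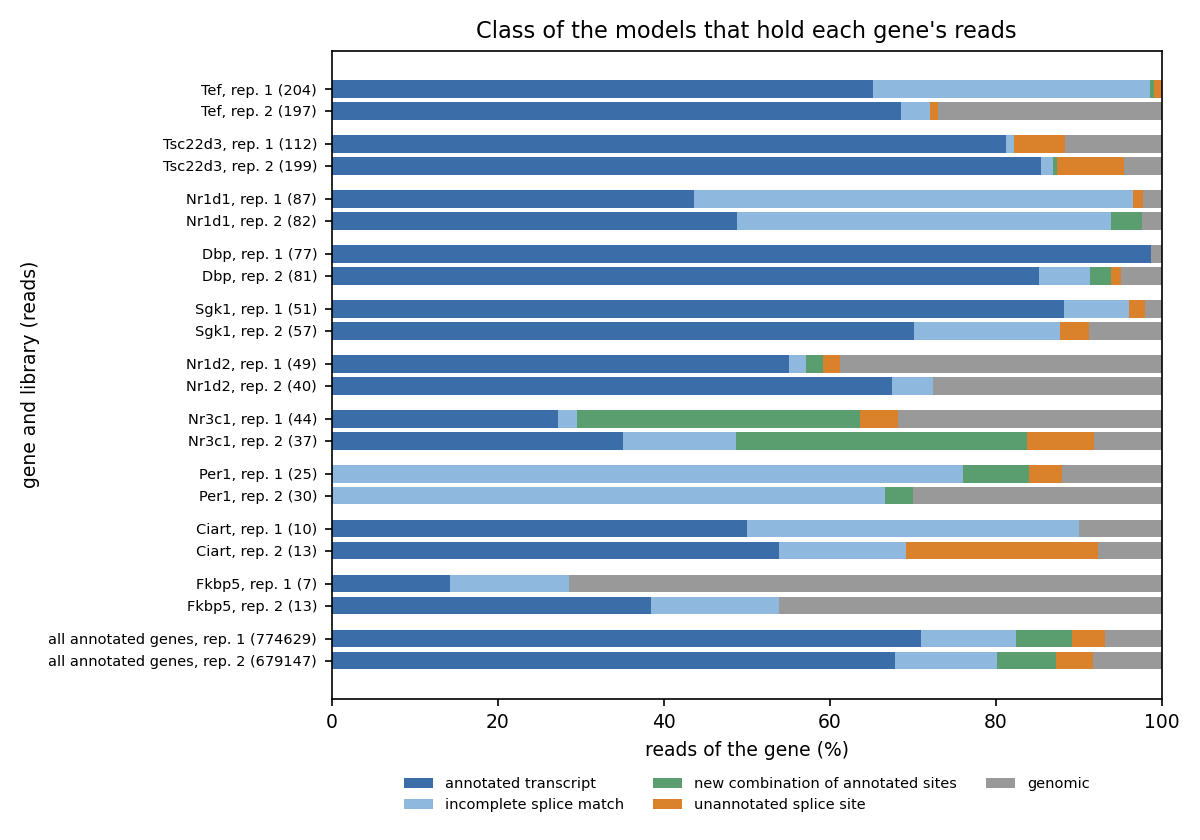
Share of each gene's reads (%) in annotated transcripts and in the 4 classes of unannotated model, by library, with the read number in parentheses and all annotated genes at the bottom. Dbp and Tsc22d3 are mostly annotated, Per1 has no annotated reads, and Nr3c1 has the most reads in new combinations of annotated sites, 34.1% and 35.1%.

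Reads of Per1 were those of its end. Per1-201 is 4671 nt long in 23 exons, and 3 reads in all reached a first exon. The most frequent model held 5 exons in 2008 nt (10 and 6 reads), and the next held 7 exons in 2427 nt (4 and 5 reads). Single-exon reads numbered 65 and 53 in Tef, 19 and 11 in Nr1d2, 14 and 3 in Nr3c1, 5 and 6 in Fkbp5, and 3 and 9 in Per1. In Tef, 65 of 65 and 52 of 53 of these lay over the last exon, which is 3233 nt long. The Tef single-exon reads were filed as incomplete splice matches in replicate 1 and as genomic in replicate 2.

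Kept introns were counted as a measure that, as far as is known, was not used to choose the genes. For each intron of the major transcript, reads that ran through it were counted against those plus reads that spliced it exactly. The median over 8217 genes was 0.208% and the third quartile 1.37%. Of the 10 genes, 7 were above the median and 5 above the third quartile: Per1, Ciart, Nr1d1, Dbp and Sgk1. Without models of the genomic class, which are mostly single-exon models, the third quartile was 1.10% and 3 were above it, Per1, Ciart and Nr1d1. The share pooled over the 10 genes was 1.16% in replicate 1 and 3.18% in replicate 2, and 1.02% over both without genomic models. The median of the 10 was 1.15% with all models and 0.440% without genomic ones.

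Per1 stood highest, with 11 of 135 intron passages kept in replicate 1 (8.15%) and 34 of 132 in replicate 2 (25.8%). Over both libraries this was 16.9%, at the 98.4th percentile of genes. Most kept passages were near its end: intron 20 was kept in 31.3% of informative reads, intron 22 in 28.3%, intron 21 in 21.6% and intron 19 in 8.57%. Introns 1 to 14 had at most 3 informative reads each, 1 of which kept intron 13, so their retention was not measurable at this depth. Without genomic models the Per1 value was 5.13%.

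Ciart kept introns in 5 of 42 passages and 1 of 55 (11.9% and 1.82%), mainly the last, intron 5, in 4 of 21 informative reads. Nr1d1 kept them in 8 of 411 and 14 of 425 (1.95% and 3.29%), with intron 7 at 7.78% and intron 5 at 4.46%. Dbp and Sgk1 had 0 of 214 and 0 of 513 in replicate 1, and 10 of 225 (4.44%) and 19 of 520 (3.65%) in replicate 2. Without genomic models the values of these 2 genes were 0.464% and 0.393% over both libraries. Tsc22d3 and Nr3c1 were at 0.426% and 0.454%. No read of Nr1d2, Tef or Fkbp5 ran through a whole intron of the major transcript. The measure misses models that begin inside an intron, such as the retained-intron forms Tef-207 (24 and 26 reads) and Dbp-205 (5 and 4). For Per1, Nr1d1, Dbp and Sgk1 the higher share of kept passages was in replicate 2, and for Ciart, Tsc22d3 and Nr3c1 in replicate 1. Without genomic models Nr1d1 was at 2.40% over both libraries. Replicate 2 was the library with more single-exon and antisense reads, and the part of these in the result was not tested.

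**Figure D4:**
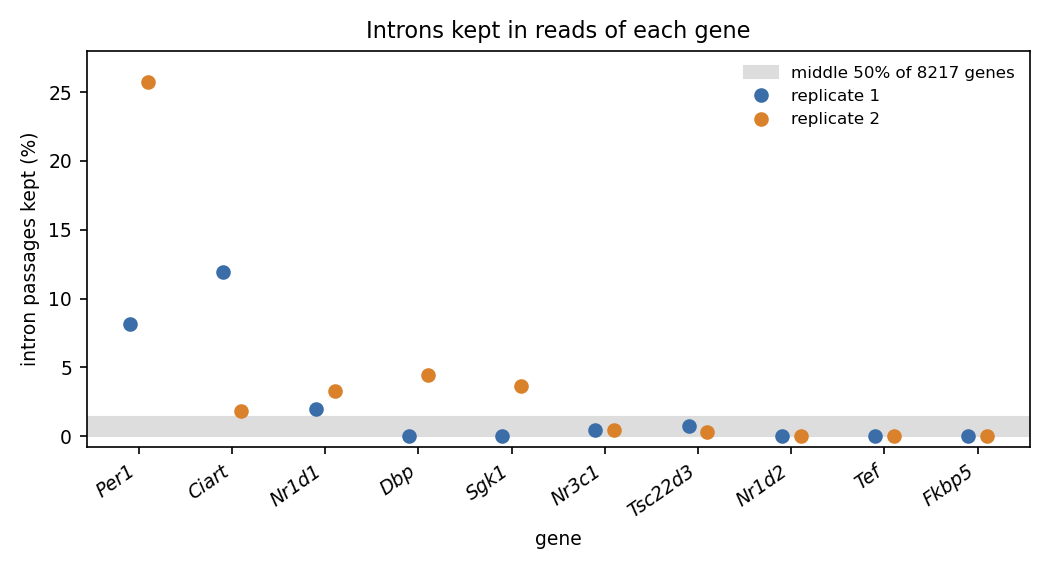
Share of intron passages kept (%) for each gene in replicate 1 and replicate 2, with the middle 50% of 8217 genes in grey. Per1 lies highest, at 8.15% and 25.8%, and Nr1d2, Tef and Fkbp5 lie at 0.

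Promoter sequence was examined for 9 of the 10 genes in 18 windows of 300 bases from RefSeq (GRCm38.p6), each from 250 bases before a start to 50 after it; the window of Nr3c1 was not used here. The E-box CACGTG, read on both strands, was in 6 of the 18 windows and 5 of the 9 genes, beside 7.15% of all 32851 windows. It was in Ciart, Per1, Tef, Sgk1 and Fkbp5, and the stretches that hold it are shown 5′ to 3′ in the direction of the gene with the matches in capitals. No match to the D-box forms TTATGTAA, TTACGTAA, TTATATAA or TTACATAA, to the REV-ERB half-site with its A/T-rich flank or to the cAMP element TGACGTCA lay in the 18 windows, beside 1.59%, 0.244% and 1.79% of all windows.
Ciart, chr3:95882255-95882356, minus strand: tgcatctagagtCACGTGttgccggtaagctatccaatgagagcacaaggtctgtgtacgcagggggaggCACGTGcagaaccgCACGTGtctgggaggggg
Per1, chr11:69098771-69098800, plus strand: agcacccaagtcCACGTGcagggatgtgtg
Tef, upstream of the 201 start, chr15:81811264-81811293, plus strand: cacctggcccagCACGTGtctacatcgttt
Tef, inside the annotated first exon of Tef-202, chr15:81802534-81802563, plus strand: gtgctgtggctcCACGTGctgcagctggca
Fkbp5, chr17:28486301-28486330, minus strand: gcaagggccagaCACGTGggcagcggtgaa
Sgk1, upstream of the 202 start, chr10:21993640-21993726, plus strand: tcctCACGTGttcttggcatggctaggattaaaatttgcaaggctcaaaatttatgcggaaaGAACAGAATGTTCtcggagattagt

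Ciart held 3 E-boxes, 116, 58 and 44 bases before its start, and the other windows 1 each. The Per1 match lay 166 bases before the start and the Fkbp5 match 169. The Tef matches lay 138 bases before the 201 start and 127 bases before a RefSeq start that is inside the first exon of Tef-202. The longer match in the Sgk1 line is the palindromic glucocorticoid response element, which lay 188 bases before the 202 start with an E-box 246 bases before it. That element was in 0.475% of all windows and in no other window of the 9 genes. The Sgk1 window with it belongs to the start that gave 5 reads in each library, not to the 201 or 204 start. The windows of Tsc22d3, Dbp, Nr1d1 and Nr1d2 held none of the 5 motifs. A match describes these letters only, and a missing match says nothing about distant elements.

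Of 25 wider clock genes, all had reads and 20 had at least 20 in total. None of the 20 passed the exact binomial gene test, beside 1.99% of all genes, a share at which a list of this size need hold no call, and their median log2 ratio was 0.16. Those with the highest levels outside the 10 were Bhlhe40, a repressor that competes for E-boxes (219 ± 35.9 CPM, SD, n = 2), the kinases of PER proteins Csnk1e (158 ± 0.873) and Csnk1d (137 ± 11.8), and Cry2, a core repressor (149 ± 28.5). The means of Nr1d1 and Dbp lay below those of these 4 genes, and Per2, the paralog of Per1, had 20 and 24 reads.

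The receptor's chaperones were far more abundant than the receptor. Hspa8, Hsp90ab1 and Hsp90aa1, which fold the receptor and hold it ready for hormone, stood at 2822 ± 226, 1665 ± 120 and 601 ± 55.0 CPM (SD, n = 2), beside 55.6 for Nr3c1. Fkbp4, the co-chaperone that takes the place of FKBP5 in the complex when hormone binds, stood at 281 ± 42.0, beside 14.1 for Fkbp5. Of 13 listed genes 12 were tested and 1 passed, beside 1.99% of all genes. It was Hspa8, which had 2982 CPM in replicate 1 and fell to 2662 (log2 ratio −0.16 with an SE of 0.05). With DESeq2's size factors 2 of the 12 passed, and 0 of 10 with annotated transcripts only or with models of more than 1 exon only. The median of the list was −0.11.

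Of 22 genes listed as induced by glucocorticoids, 17 were tested. Of these 2 rose in replicate 2, Tsc22d3 and Nfkbia, beside 1.26% of all genes, and none fell, beside 0.733%. Tsc22d3 was chosen with this contrast known, so 1 of the 2 is no independent count. The whole list was also chosen with earlier results of these data known, so its calls and medians are descriptions. Nfkbia, the inhibitor of NF-κB, went from 27 to 66 reads, 34.9 to 97.2 CPM (log2 ratio 1.45, SE 0.32). The median ratio of the 17 was 0.45, and 0.45 for the 13 that are not among the 10 genes described here, beside 0.03 for all genes tested. The most abundant of them did not pass: Klf9, a transcription factor, stood at 363 and 433 CPM (ratio 0.25, SE 0.12), Gjb6, an astrocyte connexin, at 142 and 153, Mt1, a metal-binding metallothionein, at 133 and 125, and Dusp1, a phosphatase of MAP kinases, at 115 and 118. Plin4 and Lcn2 had 0 reads in both libraries. Levels of several cell markers also moved: Gfap of astrocytes fell from 285 to 153 CPM, Cldn5 of endothelium from 265 to 172, Mbp of myelin from 1490 to 1269 and the globin Hba-a1 from 249 to 112. Their part in the ratios of the induced genes was not tested.

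**Figure D5:**
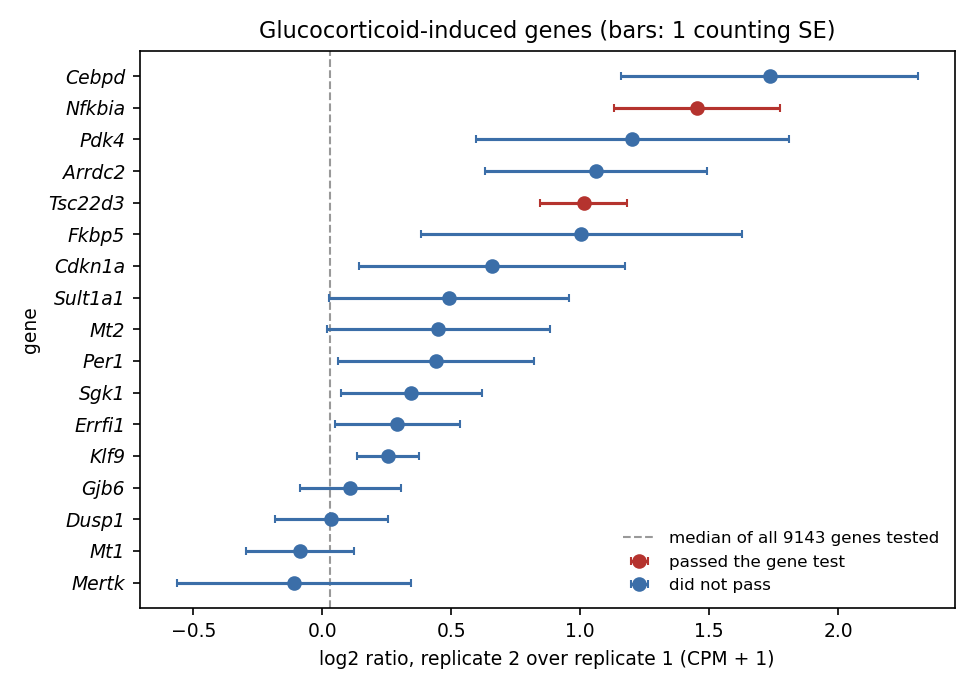
Log2 ratio of replicate 2 over replicate 1 (CPM + 1) for the 17 glucocorticoid-induced genes with at least 20 reads, with bars of 1 counting SE and the median of all 9143 genes tested as a dashed line. Tsc22d3 and Nfkbia passed the gene test, and most points lie to the right of the line.

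Of the 4 TSC22-domain genes, Tsc22d1 was the most abundant at 351 and 347 CPM, Tsc22d4 stood at 147 and 140 and Tsc22d2 at 23.2 and 20.6. Log2 ratios of these 3 were −0.01, −0.07 and −0.17, and none passed. Sgk1 was the main kinase of its family, with Sgk2 at 1 and 1 reads and Sgk3 at 4 and 7.

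Several of the 10 genes overlap another gene on the opposite strand, and the orientation of the counting is not given in the sources used here. Nr1d1 shares 1075 nt with Thra, a thyroid hormone receptor gene with 322 and 267 reads. Dbp shares 737 nt with Sphk2 (30 and 29 reads), Ciart 3749 nt with C920021L13Rik (4 and 3) and Fkbp5 9958 nt with AC154912.1 (1 and 7). Spliced reads carry the strand of their splice sites, and single-exon reads do not.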

How the data were processed

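Long-read RNA libraries of 2 biological replicates were analysed from transcript tables and annotations. The authors deposited whole read counts per transcript model, made with TALON per the file headers, on mm10 with GENCODE M21 per the deposited notes; no aligner, version or read filter was given in the sources used here. The tables hold 871524 and 839150 reads, of which spike-ins are 1.56% and 1.32%; spike-ins stayed out of all totals. Counts were summed per annotated gene and given as CPM of reads on annotated genes, with 95% Wilson intervals that cover counting error only. Replicate 2 was compared with replicate 1 by an exact conditional binomial test (genes with at least 20 reads). The major transcript's share was compared by Fisher's exact test (at least 20 reads in each library). Both were two-sided, with Benjamini-Hochberg adjustment over all genes. Both were tested on simulated data, with changes balanced in direction for the gene test and all upward for the share test. The gene test uses library totals, so changes that go mostly one way can add false calls in unchanged genes. p-values measure counting error between these 2 libraries, not animals. An intron counted as kept where an exon passed it by at least 10 bases on each side. For Per1, which had no annotated reads, Per1-201 was used, a choice made after the data were seen.

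The 10 genes and the gene lists were chosen with earlier results of these data known. Named were the 10 genes, from each list the 4 others with the highest mean CPM and any that passed, and transcripts with at least 10% of a gene's reads or the long and short Tsc22d3 starts. Other transcripts, and the marker genes Slc17a7, Gfap, Cldn5, Mbp, Hba-a1, Ttr and Vip and the clock gene Per2, were named after their values were seen. Alternatives were TMM scaling (edgeR 4.0.16) and size factors (DESeq2 1.42.0) in R 4.3.3, other pseudocounts (0.1 CPM for 1), filters, denominators and model classes, and each library alone.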

Additional observations from a re-analysis of the deposited data

Results flagged for a closer look

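Reads of antisense models, which enter no gene count above, exceeded the 3 reads that a count of 0 allows at 3 of the genes in both libraries, all in single-exon models. Opposite Fkbp5 there were 4 reads in replicate 1 and 42 in replicate 2, beside 7 and 13 reads of the gene itself. Opposite Sgk1 there were 22 and 50, beside 51 and 57 of the gene. Opposite Per1 there were 8 and 11, beside 25 and 30. Antisense reads over the whole libraries numbered 72360 and 131752, and the part of this in the values at the 3 genes was not tested.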

How the results depend on the processing

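No paired analysis was possible because there is 1 group, and its replicates are the 2 libraries compared. Tsc22d3 passed the gene test and the share test under every alternative run for it. Ratios turned from negative to positive for Nr3c1, to 0.36 with annotated transcripts only and 0.38 with models of more than 1 exon, and for Nr1d2, to 0.25 and 0.16; none of these passed. In the receptor complex list the 1 gene called became 2 with DESeq2's size factors, 0 with annotated transcripts only and 0 with models of more than 1 exon only, where fewer genes were tested. Over all genes, 182 calls became 243 with DESeq2's size factors, 55 with annotated transcripts only and 78 with models of more than 1 exon; share-test calls went from 10 to 1, 9 and 4 as models were left out. Tsc22d3-201 first-exon use was 53.7% on average and 57.9% by the shared exon, from 37.5% to 69.8% with 1 library left out. With 7 to 13 reads a library, Fkbp5 and Ciart allow no finer statement. With annotated transcripts only, Nr3c1 went from 44 and 37 reads to 12 and 13, and mean levels from 14.1 to 6.33 CPM in Fkbp5 and 38.2 to 0 in Per1, the share of Nr3c1-203 from 25.1% to 79.8% and of Nr1d1-201 from 46.2% to 100%, and the Sgk1 ratio from 0.35 to 0.08; with models of more than 1 exon the Fkbp5 level was 7.45 CPM and the Per1 ratio 0.14. Of the 10 genes, 5 lay above the third quartile of kept introns, and 3 without genomic models. Of all values of single genes and transcripts, 29 moved by more than the replicate SD and 119 kept their side or stayed within it.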
